A study of Zea mays with 18 samples.

Results

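The miR164 family of maize (Zea mays, hybrid ADA313) was described along leaf 4 of seedlings with chilled or warm nights. Its members were all probe sets of the deposited array table whose name starts with zma-miR164. They are 12 of the 228 maize probe sets listed, 8 named as a 5p arm and 4 as a 3p arm. The 5p probe sets of miR164a, miR164b, miR164c, miR164d and miR164g carry the same value in every column and count once, which leaves 8 distinct profiles of the 147 in the table, 4 of 5p arms and 4 of 3p arms. The 12 names stand for 8 miRNA genes, miR164a to miR164h. RefSeq lists a MIR164 gene for each of the 8 in its maize assembly (Zm-B73-REFERENCE-NAM-5.0), with no MIR164 gene as the direct neighbour of another. The array cannot say which of the 5 genes behind the shared 5p profile gave its signal.

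The study had 18 arrays in 6 groups of 3 biological replicates, with chilled and control seedlings each sampled at the meristem, in the elongation zone and in the mature zone. Chilled seedlings had nights at 4 °C and control seedlings nights at 20 °C. Both had 16 h days at 25 °C and 8 h nights, under 15000 lux at a relative humidity of 70%. The labels do not give the length of the chilling, the seedlings per replicate or how a zone was cut, and the zones were not checked against marker genes here.

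MicroRNAs of the miR164 family guide the cleavage of mRNAs for NAC transcription factors. In Arabidopsis these include the CUP-SHAPED COTYLEDON factors, which set the boundaries between organs and shape the leaf margin, NAC1, which acts in lateral root formation, and ORE1, which promotes leaf ageing. The working strand comes from the 5p side of the hairpin, and the 3p strand is mostly degraded. A leaf of a grass grows from its base: cells divide in the meristem, lengthen in the elongation zone and are full-grown in the mature zone, so the zones are successive stages of leaf growth.

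The table gives 1 value per group and no value of a single array. Each is the authors' bi-weight average signal on the log2 scale, and every level below is such an average. The SD between the arrays of a group was recovered from the ANOVA p-value in the authors' deposited table. Limma moderated that SD, and each difference was tested by a t-test on the moderated SD, a test named limma below. An adjusted p is from that test with Benjamini-Hochberg adjustment over all 228 probe sets, with a threshold of 0.05, and an SE is that of a difference. All probe sets in the table had an ANOVA p of 0.040982 or less, so each was preselected as differing somewhere among the 6 groups.

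The 5p arms of miR164 gave strong array signals in all 6 groups. The profile shared by miR164a, b, c, d and g-5p averaged 10.41 in the meristem, 12.14 in the elongation zone and 11.01 in the mature zone of chilled leaves, against 10.82, 11.94 and 11.35 in the same zones of control leaves. The elongation zone was highest in both conditions, the meristem lowest and the mature zone between them, an order of neighbours that passed a test only in part. The recovered SD of this profile within a group was 0.51 log2 units.

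The other 5p profiles repeated this course. The miR164f-5p level averaged 10.49, 12.14 and 11.01 along the chilled zones, against 10.85, 12 and 11.36 along the control zones. The miR164h-5p level averaged 10.52, 12.19 and 10.99 along the chilled zones, against 10.82, 11.96 and 11.4 along the control zones. The miR164e-5p level averaged 10.05, 11.78 and 10.58 along the chilled zones, against 10.37, 11.61 and 11 along the control zones. It was the lowest of the 4 in every group, between 0.33 and 0.48 log2 units under the others, a gap between probes that may differ in binding. Within a group the other 3 profiles lay within 0.02 to 0.11 log2 units of each other. Over the 6 groups Pearson's r between pairs of 5p profiles ran from 0.998 to 0.999 as a description. These probe sets read closely related strands of 1 family on the same arrays, so the 4 profiles are not independent evidence of a course.

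**Figure D1:**
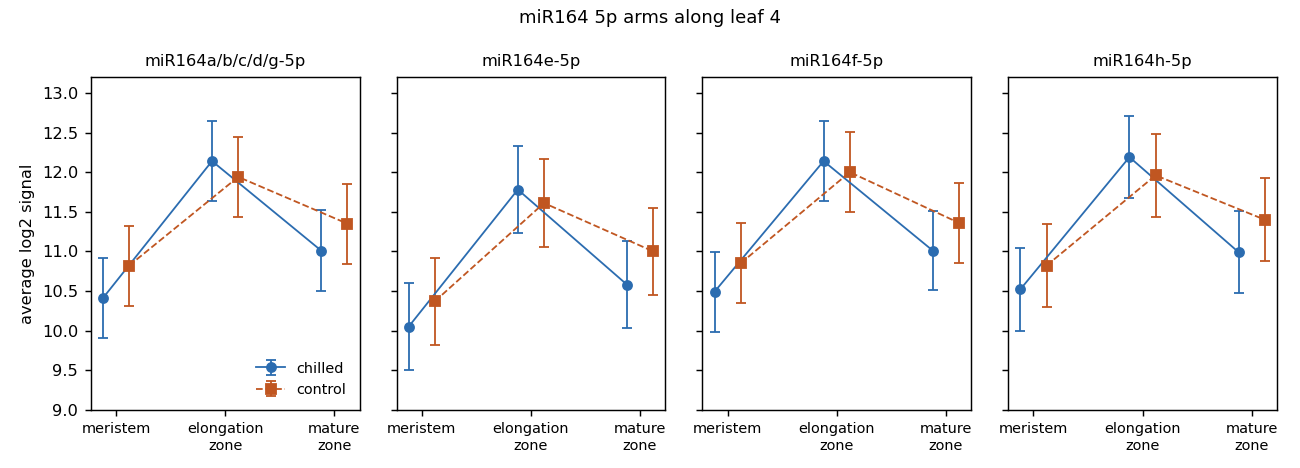
Average log2 signal of the 4 distinct miR164 5p profiles in the meristem, elongation zone and mature zone, for chilled (blue circles) and control leaves (orange squares). Points are the authors' group averages over 3 arrays and bars are the recovered SD of the profile, which is the same in every group; all 4 profiles are highest in the elongation zone, and the SD bars of chilled and control leaves overlap in each zone.

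A rank within a group does not change when a constant is added to the group's values, so it can be followed from group to group without a scaling between arrays. It compares the signals of different probes, which bind differently, and is no order of abundance. A rank also shifts when other strong profiles change, so a new rank alone does not show that miR164 changed. Among the 147 profiles, ranked from the highest signal, the 4 miR164 5p profiles held ranks 14 to 20 in the chilled meristem and 13 to 20 in the control meristem. In the elongation zone they stood higher, at ranks 3 to 9 in chilled and 5 to 8 in control leaves. In the mature zone they held ranks 8 to 13 in chilled and 6 to 11 in control leaves.

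**Figure D2:**
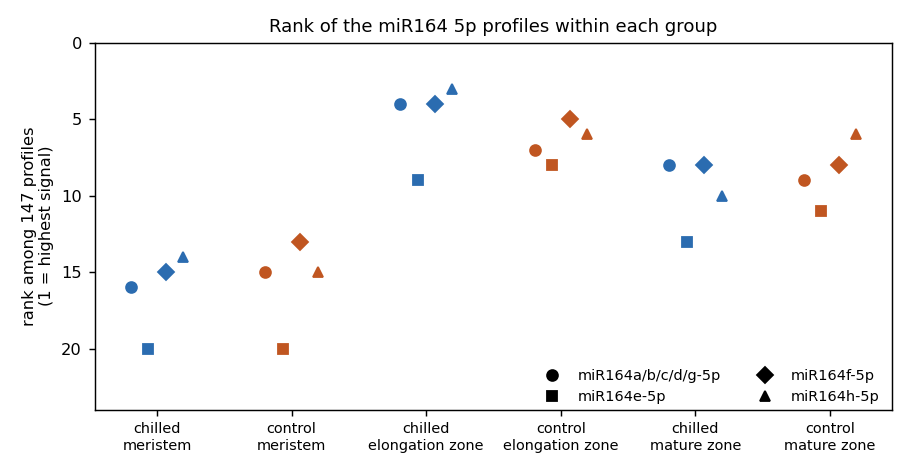
Rank of each miR164 5p profile (marker shape) among all 147 profiles in each group, with rank 1 the highest signal and chilled left of control for each zone. The ranks are 3 to 9 in the elongation zone of either condition and 13 to 20 in the meristem of either condition.

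The zones were compared within each condition, to follow the family from dividing to expanding and mature tissue. The 5p arms rose in the elongation zone over the meristem in chilled and in control leaves. The shared miR164a/b/c/d/g-5p profile stood at 12.14 in the elongation zone and 10.41 in the meristem of chilled leaves, a difference of 1.73 (SE 0.39, adjusted p = 0.00171 by limma), which is 3.32-fold with a 95% interval of 1.85 to 5.96. In control leaves it stood at 11.94 in the elongation zone and 10.82 in the meristem, a difference of 1.12 (SE 0.39, adjusted p = 0.0299 by limma), which is 2.17-fold with a 95% interval of 1.21 to 3.91. All 4 profiles passed in both conditions, with differences of 1.65 to 1.73 in chilled and 1.12 to 1.24 in control leaves. Of all probe sets 36.8% were higher in the elongation zone of chilled leaves and 35.1% in that of control leaves by the same rule. Counted over the 147 distinct profiles, 44 were higher in chilled and 36 in control leaves. The median difference over the 147 profiles was 0.13 in chilled and 0.05 in control leaves.

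The direction of this rise was kept under both other scalings tried, and part of the calls was not. With quantile normalization of the 6 averages 3 of 4 profiles passed in chilled leaves and 1 of 4 in control leaves, with adjusted p-values by limma up to 0.0527 and 0.126. With each group's median subtracted, 4 of 4 passed in chilled leaves and 0 of 4 in control leaves, where limma gave an adjusted p of 0.0503 to 0.0529 and differences of 1.01 to 1.13. In control leaves the calls were also lost when the recovered SD was enlarged by 25%, with an adjusted p of 0.0894 to 0.0912 by limma. The share of all probe sets called under these alternatives is not given here, so the lost calls may not be particular to miR164.

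Between the elongation and the mature zone the 5p arms fell in chilled leaves as the values were deposited, with a direction that depends on the scaling: it turned when each group's median was subtracted. The shared 5p profile stood at 11.01 in the mature zone and 12.14 in the elongation zone of chilled leaves (difference -1.13, SE 0.39, adjusted p = 0.0241 by limma). All 4 profiles passed there, with differences of -1.20 to -1.13. Of all probe sets 54.8% were lower in the chilled mature zone, and 86 of the 147 distinct profiles. With the recovered SD enlarged by 25% these calls were lost, with an adjusted p of 0.0695 to 0.0791 by limma. In control leaves the shared profile stood at 11.35 in the mature zone and 11.94 in the elongation zone (-0.59, SE 0.39, adjusted p = 0.235 by limma). There 0 of 4 passed, beside 42.1% of all probe sets and 68 of the 147 distinct profiles lower. Limma without adjustment gave none of the 4 a p under 0.05 in control leaves, beside 86 of the 147 distinct profiles.

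Most profiles of the table were also lower in the mature zone. The median of the 147 differences between mature and elongation zone was -0.86 in chilled and -0.59 in control leaves, beside a median over the 4 5p profiles of -1.17 in chilled and -0.60 in control leaves. Median subtraction adds the same amount to every profile, here 2.23 in chilled and 1.76 in control leaves, so any smaller fall turns with it by construction. The mature zone medians that it removes, 1.55 in chilled and 1.68 in control leaves, lie under the log2 signal of 2 taken as background here, as do 91 and 85 of the 147 profiles. The 5p differences so shifted were 1.03 to 1.10 in chilled and 1.12 to 1.20 in control leaves. With quantile normalization they stayed below 0, from -1.06 to -0.68 in chilled and from -0.62 to -0.10 in control leaves, and none of the 4 profiles passed in either condition.

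The mature zone and the meristem, the last and the first zone along the leaf, differed less in the 5p arms than the elongation zone and the meristem did. The shared 5p profile stood at 11.01 in the mature zone and 10.41 in the meristem of chilled leaves (0.60, SE 0.39, adjusted p = 0.176 by limma) and at 11.35 and 10.82 in the same zones of control leaves (0.53, SE 0.39, adjusted p = 0.242 by limma). None of the 4 profiles passed in either condition by limma, and none had an unadjusted p under 0.05. Of the 147 distinct profiles 113 in chilled and 91 in control leaves had an unadjusted p under 0.05 by limma. Of all probe sets 32.9% were higher and 44.7% lower in the mature zone than in the meristem of chilled leaves, and 19.3% higher and 39.0% lower in control leaves. Counted over the 147 distinct profiles, 37 were higher and 69 lower in chilled leaves, and 21 higher and 58 lower in control leaves. Median subtraction adds 1.68 in chilled and 1.65 in control leaves to this difference of every profile, from the same medians under background, and all 4 then passed through that shift.

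**Figure D3:**
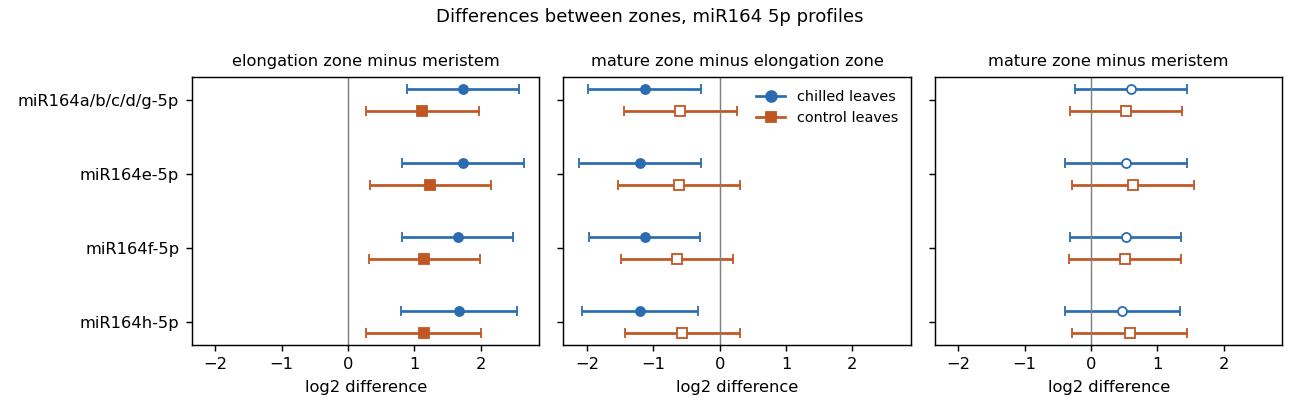
Log2 differences between zones for the 4 miR164 5p profiles in chilled (blue circles) and control leaves (orange squares), with 95% intervals; filled symbols passed an adjusted p of 0.05. The elongation zone is higher than the meristem in both conditions (1.65 to 1.73 in chilled, 1.12 to 1.24 in control leaves), and the mature zone is lower than the elongation zone in chilled leaves by a called difference that turns positive with median subtraction.

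The chilled and control groups were compared within each zone, to ask whether the family responds to cold nights while the leaf grows. No miR164 profile passed in any zone. In the meristem the shared 5p profile stood at 10.41 in chilled and 10.82 in control leaves (-0.41, SE 0.39, adjusted p = 0.777 by limma). Its 95% interval ran from -1.26 to 0.44 log2 units, or from 0.419-fold to 1.35-fold. In the elongation zone it stood at 12.14 in chilled and 11.94 in control leaves (0.20, SE 0.39, adjusted p = 0.832 by limma), with an interval of -0.65 to 1.05. In the mature zone it stood at 11.01 in chilled and 11.35 in control leaves (-0.34, SE 0.39, adjusted p = 0.675 by limma), with an interval of -1.19 to 0.51.

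The other 5p profiles had differences of the same sign in each zone. Over the 4 profiles the chilled minus control difference was -0.41 to -0.30 in the meristem, 0.14 to 0.23 in the elongation zone and -0.42 to -0.34 in the mature zone. In the elongation zone all 4 were below 0 with median subtraction, and miR164e-5p was with quantile normalization. With quantile normalization miR164e-5p and miR164h-5p were above 0 in the meristem. Taking all 4 intervals, the data allow a change of up to -1.26 or 0.60 log2 units in the meristem, -0.75 or 1.10 in the elongation zone and -1.34 or 0.51 in the mature zone.

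By limma 0 of 8 miR164 profiles passed in each zone, beside 8.33% of all probe sets in the meristem, 0.877% in the elongation zone and 14.0% in the mature zone. Over the 147 distinct profiles these shares were 5.44%, 1.36% and 14.3%. At an unadjusted p under 0.05 by limma there were 19, 27 and 32 of the 147 distinct profiles in the meristem, elongation zone and mature zone. Of the 8 miR164 profiles there were 0 in the meristem, 1 in the elongation zone and 0 in the mature zone. That 1 was miR164b-3p, at 1.22 in chilled and 1.78 in control leaves (-0.56, SE 0.25, unadjusted p = 0.0403, adjusted p = 0.270 by limma). Both of its levels are under the log2 signal of 2 that is taken as background here. It passed with median subtraction (-0.90, adjusted p = 0.0414 by limma), and miR164a-3p, also at background, passed in the mature zone with quantile normalization (1.44).

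**Figure D4:**
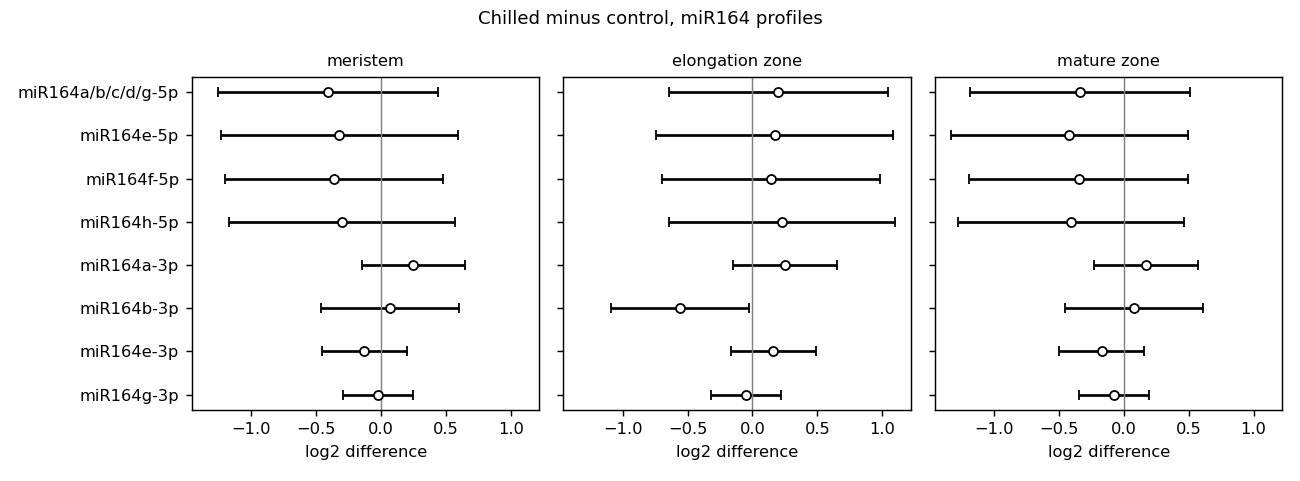
Chilled minus control log2 difference of the 8 distinct miR164 profiles in the meristem, elongation zone and mature zone, with 95% intervals; open circles did not pass an adjusted p of 0.05. No profile passed in any zone, and miR164b-3p in the elongation zone (-0.56) is the only one whose unadjusted interval leaves out 0.

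The step between meristem and elongation zone was larger in chilled than in control leaves by 0.61 log2 units for the shared 5p profile (SE 0.56, 95% interval -0.59 to 1.81, adjusted p = 0.811 by limma), and this difference did not pass. The step between elongation and mature zone differed by -0.54 (SE 0.56, interval -1.74 to 0.66, adjusted p = 0.751 by limma), and the span between meristem and mature zone by 0.07 (SE 0.56, interval -1.13 to 1.27, adjusted p = 0.956 by limma). The call in chilled and not in control leaves between elongation and mature zone is therefore not shown to differ between the conditions. Over the other 3 profiles of 5p arms these differences were of similar size, with ranges over all 4 of 0.49 to 0.61, -0.64 to -0.49 and -0.11 to 0.07. By these limma contrasts 0 of 8 miR164 profiles passed, with 0 at an unadjusted p under 0.05, beside 0%, 2.19% and 8.33% of all probe sets. Of the 147 distinct profiles 0, 5 and 11 passed, and 15, 24 and 23 had an unadjusted p under 0.05 by limma. The moderated F test over the 3 zones called 7.02% of all probe sets and 0 of the 8 profiles, whose adjusted p by limma was 0.724 for the shared 5p profile and 0.455 for miR164b-3p, the lowest of the family.

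The 3p strands gave no average above the log2 signal of 2. This level was set here as background and is not a detection call. In all 6 groups the 4 measured 3p arms averaged between 0.67 and 1.83, all under the log2 signal of 2 taken as background, a level under which 48 to 91 of the 147 profiles lay in a group. Values at background and probes that bind differently give no ratio between the arms of a gene.

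At this low signal the 3p profiles did not move together. The miR164a-3p level averaged 1.37, 1.42 and 1.83 along the chilled zones, against 1.12, 1.17 and 1.66 along the control zones, with the mature zone highest in both. It rose in the mature zone over the meristem in chilled (0.46, SE 0.19, adjusted p = 0.0354 by limma) and in control leaves (0.54, SE 0.19, adjusted p = 0.0215 by limma). The miR164g-3p level averaged 1.23 in the chilled meristem, where chilled and control leaves differed by -0.02. It averaged 1.24 in the chilled elongation zone, against 1.29 in the control one, and 0.72 in the chilled mature zone, against 0.8 in the control one. It fell in the mature zone against the meristem in chilled (-0.51, SE 0.13, adjusted p = 0.00257 by limma) and in control leaves (-0.45, SE 0.13, adjusted p = 0.00757 by limma), both of which the shift of median subtraction turned positive, at 1.17 and 1.20.

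The miR164e-3p level averaged 1.06, 1.4 and 0.67 along the chilled zones, against 1.19, 1.24 and 0.84 along the control zones. It fell in the mature zone against the elongation zone in chilled (-0.73, SE 0.15, adjusted p = 0.00129 by limma) and control leaves (-0.40, SE 0.15, adjusted p = 0.0415 by limma), and both differences were positive with median subtraction. Against the meristem, its chilled mature zone was lower (-0.39, SE 0.15, adjusted p = 0.0309 by limma), a difference that median subtraction turned to 1.29. The miR164b-3p level averaged 1.14, 1.22 and 0.93 along the chilled zones, against 1.07, 1.78 and 0.85 along the control zones. Its control elongation zone stood above its other 5 groups, and there it rose over the meristem (0.71, SE 0.25, adjusted p = 0.0299 by limma). That call was lost with quantile normalization, median subtraction and the enlarged SD (adjusted p of 0.0992, 0.0592 and 0.0894 by limma). From elongation to mature zone it fell in control leaves (-0.93, SE 0.25, adjusted p = 0.0083 by limma). Median subtraction turned this fall to 0.83, and quantile normalization lost its call (adjusted p = 0.0545 by limma).

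Counted over the 4 3p profiles, 0 rose and 2 fell in the mature against the elongation zone of chilled leaves, beside 10.1% of all probe sets higher and 54.8% lower there. In control leaves 1 rose and 3 fell, beside 7.46% of all probe sets higher and 42.1% lower. Over the 147 distinct profiles 19 were higher and 86 lower in chilled leaves, and 11 higher and 68 lower in control leaves. The shift of median subtraction is larger than each of these falls and turns them all by construction. In the elongation zone against the meristem 0 of the 4 passed in chilled leaves and 1 rose in control leaves. Of all 147 profiles 44 rose and 22 fell there in chilled leaves, and 36 rose and 17 fell in control leaves. In the mature zone against the meristem 1 rose and 2 fell in chilled leaves, and 1 rose and 1 fell in control leaves. Of all 147 profiles 37 rose and 69 fell there in chilled leaves, and 21 rose and 58 fell in control leaves. Of the 12 calls that the 3p profiles had between zones in either condition, 7 were lost with quantile normalization and 6 with the enlarged SD. All of them are calls between levels under the log2 signal of 2 taken as background. In the authors' deposited table the FDR p-value over all conditions was 0.065115 for miR164b-3p and under 0.05 for the other 7 profiles, from 0.00092 for miR164g-3p to 0.029923 for miR164e-5p.

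**Figure D5:**
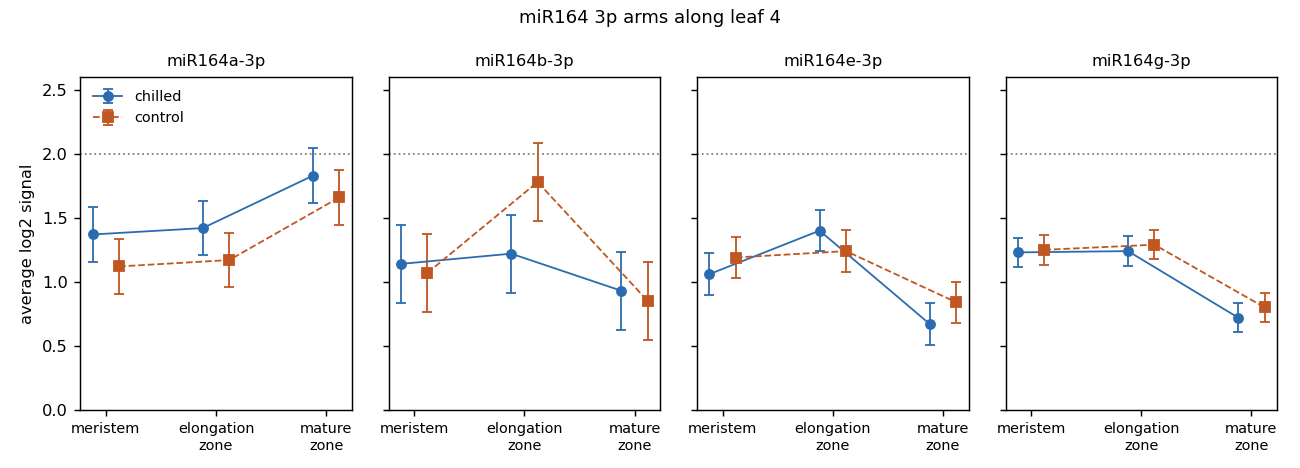
Average log2 signal of the 4 miR164 3p profiles in the 3 zones for chilled (blue circles) and control leaves (orange squares), with the recovered SD as bars and the background level of 2 as a dotted line. All averages lie between 0.67 and 1.83; miR164a-3p is highest in the mature zone, and the other 3 are lowest there, an order that turns with median subtraction.

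The 3 profiles of other families whose course over the 6 averages was most like that of a 5p profile, by Pearson's r among the 97 profiles outside the family that span at least 1 log2 unit, were the same for all 4. The closest was miR396a/b-5p, with r of 0.963 to 0.970, at 1.31, 2.94 and 1.93 along the chilled zones, against 1.36, 2.48 and 2.05 along the control zones. The next was miR399f-5p, with r of 0.947 to 0.963, at 1.38, 5.1 and 1.98 along the chilled zones, against 1.0, 5.66 and 3.22 along the control zones. The profile shared by miR396g-5p and miR396h followed with r of 0.910 to 0.926. These are far weaker signals than miR164-5p, partly at background, and the r describes 6 averages that share the arrays.

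Other miRNA families that act on leaf growth and on auxin signalling give a setting for the miR164 values. The leaf growth list holds miR319, miR396, miR166 and miR390, which act on TCP factors, growth-regulating factors, HD-ZIP III factors and TAS3 transcripts. Of its 25 distinct profiles 0 rose and 5 fell in the mature zone of chilled against control leaves, which is 20.0% called, beside 14.3% of all 147 profiles, of which 7 rose and 14 fell. The median difference was -0.24 over the list and -0.01 over all profiles. Among them miR319a/b/c/d-3p stood at 1.59 in chilled and 5.34 in control leaves (-3.75, adjusted p = 0.00222 by limma). Its chilled level is under the log2 signal of 2 taken as background. The next largest falls were miR166h-5p (-3.13), miR166b/d-5p (-3.08) and miR390a/b-3p (-2.95). These are strands opposite those by which miR166 and miR390 act on their targets. In the meristem 1 of the 25 rose and 2 fell, beside 5.44% of all profiles called, and in the elongation zone 0 passed by limma, beside 1.36%. In Arabidopsis, TCP factors held down by miR319 activate a miR164 gene. The miR164 5p arms, with a median difference of -0.38 in the chilled mature zone, did not pass, and whether they differ in this from the miR319 3p profile was not tested.

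The auxin list holds miR160, miR167 and miR393, which act on auxin response factors and auxin receptors. Of its 17 distinct profiles, 0 passed in the chilled meristem, 1 rose in the elongation zone and 2 fell in the mature zone, where 11.8% of the list and 14.3% of all profiles were called. The riser was miR167e-3p, at 4.84 in chilled and 2.83 in control leaves (2.01, adjusted p = 0.0325 by limma), and miR160a-3p fell to 2.36 in chilled mature zones, against 4.95 in control ones (-2.59, adjusted p = 0.00591 by limma). Both are 3p strands, opposite the 5p strands by which these families act on their targets. In the elongation zone against the meristem 10 of the 17 rose and 2 fell in chilled leaves, beside 44 and 22 of all 147 profiles. In control leaves 9 rose and 3 fell, beside 36 and 17 of all 147. A rise is the direction that 4 of 4 miR164 5p profiles had in each condition as deposited. The leaf growth list had more falls than rises among its calls in this comparison. Of its 25 profiles 6 rose, 10 fell and 9 did not pass in chilled leaves. In control leaves 5 rose, 7 fell and 13 did not pass. The list takes 5p and 3p arms together. It also holds miR396a/b-5p, whose average was higher in the elongation zone than in the meristem in both conditions. With median subtraction 1 of the 12 auxin list calls of chilled leaves turned. With quantile normalization 1 of the 16 leaf growth calls of chilled leaves did. The calls under chilling named here for both lists kept their sign with quantile normalization and with median subtraction.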

How the data were processed

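The authors deposited 1 table, with a log2 bi-weight average per group over its arrays and no single array, per the file headers. They also deposited an ANOVA p-value and an FDR p-value over all conditions, per the file headers. Affymetrix Expression Console is named in the submitters' processing notes, and how the arrays were normalized and background was corrected is not given in the sources used here. Per the labels' protocols, total RNA came from a Trizol extraction, of which 10 µg was labelled with biotin for each array.

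The planned limma fit on single arrays could not be made from averages, so the t and F tests were computed directly, with a variance that limma moderated. F was recovered from each ANOVA p (5 and 12 degrees of freedom), the variance between averages was divided by it, and the resulting residual variance was moderated with squeezeVar of limma 3.58.1 in R 4.3.3 (prior degrees of freedom 1.945, total 13.94). This treats the bi-weight average as a mean and assumes an ordinary ANOVA with equal spread. The recovery was run on simulated data that share these assumptions, which tests the computation and not the assumptions. Since the same ANOVA preselected the table, the false discovery rate can exceed its nominal level. P-values measure only the spread between these arrays, whose number limits the precision.

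All members of the family are named. Nearest courses are the 3 profiles with the highest r for each 5p profile, and list examples are among the 4 largest differences of a zone. Members, lists and tests were chosen with earlier results of these data known. The alternatives were 2 scalings, 3 settings of the recovered SD and 3 of the adjustment. Under the 2 scalings only the averages changed, and the SD stayed the one recovered from the averages as deposited. Calls under them are therefore not tests of rescaled arrays. Shares of all probe sets are given for the main fit only, so a call gained or lost under an alternative may not be particular to miR164.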

Additional observations from a re-analysis of the deposited data

How the results depend on the processing

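Of 403 single values under 8 alternatives, 335 kept their direction and side of the threshold, 34 lost the call, 9 gained one and 25 changed direction. The 403 cover the zone and chilling differences of the 5p profiles and the zone contrasts of the chilling effect for the shared 5p profile. Of the 3p profiles they hold only the called zone differences and the chilling difference of miR164b-3p in the elongation zone. Calls gained by other 3p values are therefore not among the 9. Adjusting over 1 probe set per profile, 10 residual degrees of freedom, joint adjustment and no variance moderation moved no call among these 403 values. Without variance moderation the number of miR164 profiles called was 5 in place of 4 for elongation zone against meristem in chilled leaves and 3 in place of 2 for mature zone against meristem in control leaves. With the recovered SD enlarged by 25%, the number of miR164 profiles called was 2 for mature against elongation zone in chilled and in control leaves, 1 for mature zone against meristem in each, and 0 for elongation zone against meristem in control leaves. Filtering out profiles always under a log2 signal of 2 removed the 3p arms, so 0 remained for mature zone against meristem in both conditions and for mature against elongation zone in control leaves.

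With quantile normalization 1 profile was called for mature against elongation zone in chilled leaves, and it was none of the 6 called in the main fit. In control leaves the 1 called was miR164a-3p, which rose (1.62), and the called falls were lost. For elongation zone against meristem in control leaves the 1 called was miR164e-5p. Quantile normalization also called 1 profile, miR164a-3p, for chilled against control in the mature zone (1.44), for 2 of the contrasts of the chilling effect between zones and by the F test. The chilled minus control difference became 0.17 for miR164e-5p and 0.24 for miR164h-5p in the meristem, and -0.12 for miR164e-5p in the elongation zone. The mature minus meristem difference of miR164h-5p in chilled leaves became 0, and the chilling effect in the mature zone less that in the meristem became -0.032 for the shared 5p profile.

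Median subtraction shifted differences of the mature zone against the other zones by 1.65 to 2.23, alike for every profile, so the changes there follow from its construction. It called 8 profiles for mature zone against meristem in chilled and in control leaves and for mature against elongation zone in control leaves, 0 for elongation zone against meristem in control leaves, and 1, miR164b-3p (-0.90), for chilled against control in the elongation zone. In that comparison the 5p profiles a/b/c/d/g, e, f and h became -0.14, -0.17, -0.20 and -0.11. For mature minus elongation zone the same 4 became 1.10, 1.03, 1.10 and 1.03 in chilled and 1.17, 1.15, 1.12 and 1.20 in control leaves. The 3p values became 1.50 for miR164e-3p and 1.71 for miR164g-3p in chilled leaves, and 0.83, 1.36 and 1.27 for miR164b-3p, miR164e-3p and miR164g-3p in control leaves. For mature zone minus meristem, miR164e-3p and miR164g-3p became 1.29 and 1.17 in chilled leaves, and miR164g-3p became 1.20 in control leaves. The cause of the changes under quantile normalization was not tested.

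No paired analysis was possible because the table holds group averages and no value of a single array, and leaving out each replicate was not run for the same reason.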
